A study of Mus musculus with 9 samples.

Results

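The proteins that carry the signal from Toll-like receptors (TLRs) into the cell, the IRAK kinases and the TLR adaptors, were followed in ribosome profiling (RiboSeq) of TTP-deficient mouse macrophages. They were chosen by gene symbol, and all 9 were found among the 16921 genes of the deposited table: Irak1, Irak2, Irak3, Irak4, Myd88, Tirap, Ticam1, Ticam2 and Tollip. All 9 were also among the 10103 genes that passed the minimum of 10 for the mean value over the libraries. Footprints on Irak3, the inhibitory member of the kinase family, in macrophages with the phosphorylation-site mutant GFP-TTP-AA were 2.55-fold those in GFP-TTP and 1.91-fold those in GFP macrophages, and the other 8 genes passed the threshold in no comparison.

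RiboSeq counts ribosome-protected fragments per gene, so that a value reflects both how much mRNA a cell holds and how many ribosomes sit on it, and these cannot be told apart here. The cells were bone marrow-derived macrophages (BMDMs) without TTP, from 6-week-old mice, immortalized with the oncogenes hcmyc and hRasG12V. They carried a doxycycline-inducible vector for GFP alone, for GFP-TTP or for GFP-TTP-AA, in which the substitutions S52A and S178A remove the sites at which the kinase MK2 phosphorylates TTP. All cells received doxycycline (1 µg/ml) for 6 h and LPS (1 µg/ml) for 1 h, and 3 libraries were made per condition, which gives 9 in all. Each condition was a cell line of its own, sorted for GFP, so that the expressed protein and the line cannot be told apart. Cells without LPS were not analysed here, so that the comparisons do not measure the LPS response itself.

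Binding of LPS to TLR4 recruits the adaptors TIRAP (Tirap) and MyD88 (Myd88) at the plasma membrane. MyD88 gathers IRAK4, IRAK1 and IRAK2 into the Myddosome, from which TRAF6 and the kinases behind it are activated. After uptake of the receptor the adaptors TRAM (Ticam2) and TRIF (Ticam1) start a further arm that leads to TBK1 and IRF3. IRAK-M (Irak3), a family member without catalytic activity that is best known from macrophages, and TOLLIP (Tollip) restrain signalling. TTP binds AU-rich elements in the 3′UTRs of mRNAs of inflammatory genes, lowers their stability and translation, and is itself switched off by phosphorylation after LPS.

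Because TTP binds AU-rich elements, the annotated 3′UTRs of the 9 genes were searched for the motif ATTTA, for the longer TATTTAT and for the nonamer TTATTTATT, all in the sense orientation, where a TATTTAT also counts as an ATTTA. The short motif was present in 7 of the 9 genes, TATTTAT in 2 of them and TTATTTATT in 0. Of the 9968 tested genes with a gene model, 65.9% held ATTTA, 27.5% TATTTAT and 7.08% TTATTTATT, so that the shortest motif is shared by most tested genes. The 2 genes with TATTTAT were Irak2, with 4 ATTTA and 2 TATTTAT in 1246 nt, and Tollip, with 4 ATTTA and 1 TATTTAT in 2784 nt. Irak3 and Myd88 held 1 ATTTA each, near the end of 3′UTRs of 1067 and 987 nt. Tirap (3360 nt) held 3, Ticam2 (3029 nt) 2, Irak4 (1260 nt) 1, and Irak1 (469 nt) and Ticam1 (576 nt) 0. The sites below are shown because they are the only ATTTA of Irak3 and of Myd88, the genes with the lowest adjusted p-values, and the only TATTTAT sites in the set. They were read 5′ to 3′ on the strand of the mRNA from GRCm38, with the motif in capitals:
Irak3, chr10:120141710-120141738, minus strand, motif at position 989 of the 3′UTR: ctgcttctctgtATTTAaattcttagaag
Myd88, chr9:119335954-119335982, minus strand, position 951: ttctgtgtgtgaATTTAtaataaaaagta
Irak2, chr6:113694395-113694423, plus strand, position 626: cattgtgcccaTATTTATtttaatggaga
Irak2, chr6:113694429-113694457, plus strand, position 660: aggttgtgtgtTATTTATagctaggtgaa
Tollip, chr7:141882929-141882957, minus strand, position 1421: ttgtttataagTATTTATttttgtaagcc
The TATTTAT copies of Irak2 lie close together, while the ATTTA of Myd88 is followed by aataaa, the letters of the polyadenylation signal. A match in the letters does not show that TTP binds there.

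The deposited values are what the authors' model (DESeq2) predicts per gene and library, and observed counts are not among them. A condition term and a library-number term per gene left a residual SD of 1.64e-15 of the log2 values. The points of a condition in the plots therefore show how far the model set the 3 library numbers apart, by the same factor in each condition, and not how the single counts scattered. Whether libraries overlap thus compares the size of fitted terms and does not show that replicates agree. The error of a change is its standard error (SE) in the authors' deposited tables, which rests on the observed counts. The labels call the libraries biological replicates without naming separate animals. The p-values thus measure the spread between these libraries that the model leaves after its library-number term. Library size factors ran from 0.416 to 2.12, and the sum of the fitted values per library ran from 2570292 to 12804501, lowest in the second GFP-TTP-AA library. In what follows, the value of a gene in a library is its fitted value divided by the size factor, its level is the geometric mean over the 3 libraries, and a log2 fold change is the difference of 2 levels. The model shrinks such changes towards 0. Each was tested by a two-sided Wald test with the deposited SE and adjusted by Benjamini-Hochberg over all tested genes of the comparison, with a threshold of 0.05.

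As a check of the labels, the level of Zfp36, which encodes TTP and also takes up footprints on the constructs, was 459.0 (GFP), 926.4 (GFP-TTP) and 1536 (GFP-TTP-AA). It rose by 1.01 and 1.74 on the log2 scale over GFP (adjusted p = 0.0049 and 2.3e-09), and the constructs differed by 0.73 from each other (adjusted p = 0.038). Between GFP-TTP and GFP-TTP-AA the level of Zfp36 footprints and the substitutions thus differed together and cannot be told apart here. At the level of protein, the authors report from western blots that both fusion proteins were present in similar amounts before and after LPS. The GFP macrophages, although TTP-deficient, also showed footprints on Zfp36, and their source was not tested. Of 8 macrophage markers 7 reached a mean of 10, among them Adgre1 and Itgam, whose proteins were used to identify the cells as macrophages, and Mertk stayed near 5. Their summed level was 87504, 67733 and 97666 in the same order. No marker of T cells, B cells, dendritic cells or fibroblasts reached 10, none of the 4 mast cell and basophil markers was listed, and of the neutrophil markers only S100a8 did, with 27.0, 25.6 and 55.9.

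The 9 genes differed widely in ribosome footprints. Per kilobase of coding sequence, Myd88 had the highest level in each condition, with 509.2 (GFP), 470.4 (GFP-TTP) and 643.4 (GFP-TTP-AA). Irak2 was next with 219.6, 241.1 and 277.8. In GFP macrophages the order continued with Tollip (205.9), Irak4 (162.3), Tirap (118.6), Irak3 (118.4), Ticam1 (44.5), Irak1 (34.9) and Ticam2 (23.5 per kilobase). Neighbours in this order whose libraries overlapped were Irak2 and Tollip, Tollip and Irak4, and Tirap and Irak3. Irak3 held rank 6 of the 9 with GFP, rank 6 with GFP-TTP (88.8 per kilobase) and rank 3 with GFP-TTP-AA (226.1 per kilobase), where its libraries overlapped with those of Irak2 above it and Tollip below it. Irak1, the least read kinase, had the lowest level of all in GFP-TTP-AA macrophages with 25.6 per kilobase.

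**Figure D1:**
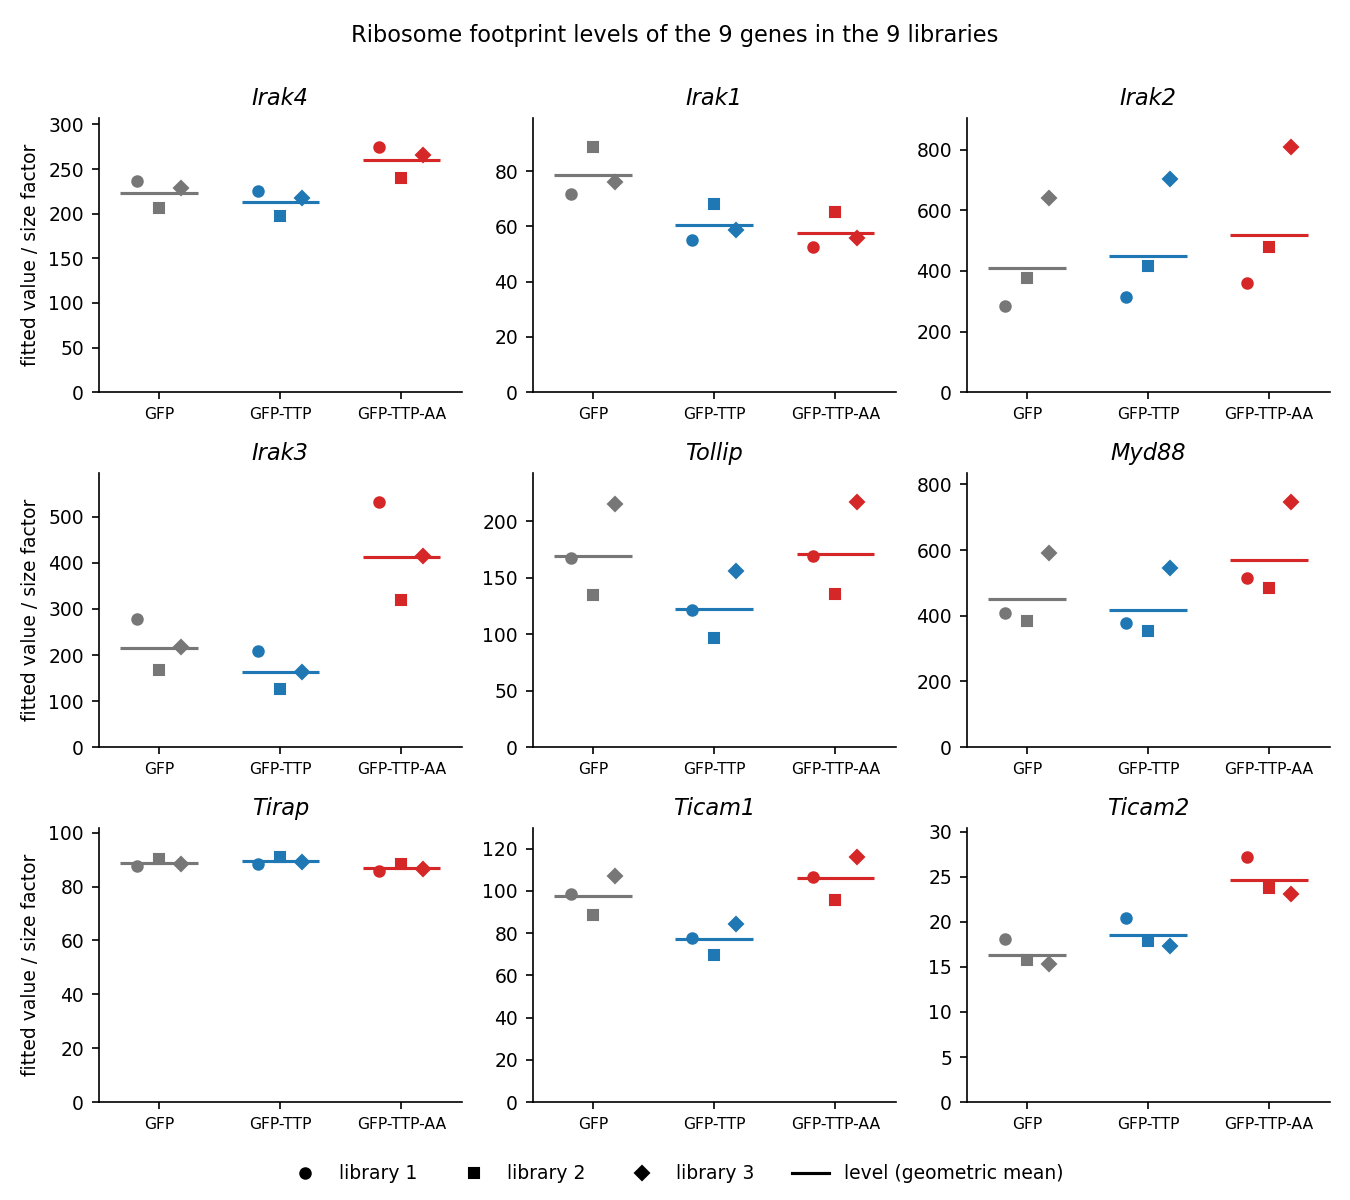
Each panel shows 1 gene, with the fitted value divided by the size factor on a linear axis from 0 for the 3 libraries of each condition (symbols, by library number) and the level as a line. The libraries of Irak3 lie between 319.1 and 532.2 with GFP-TTP-AA and at or below 278.6 in the other conditions, whereas Irak2 differs more between library numbers than between conditions.

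Among the kinases, Irak3 changed. The gene spans chr10:120141648-120202130 of GRCm38 (minus strand). Its values in libraries 1, 2 and 3 were 278.6, 167.1 and 217.4 with GFP, 208.9, 125.3 and 163.0 with GFP-TTP, and 532.2, 319.1 and 415.2 with GFP-TTP-AA. All fitted values with GFP-TTP-AA were above all others, while those of GFP and GFP-TTP overlapped. This order follows from the condition and library-number terms alone and is not a measure of agreement between replicates. The level rose from 162.2 with GFP-TTP to 413.2 with GFP-TTP-AA, which is 2.55-fold (95% interval 1.90 to 3.41) or 1.35 on the log2 scale (SE 0.21, adjusted p = 4.3e-08). Against the 216.3 of GFP macrophages it was 1.91-fold higher (log2 0.93, SE 0.21, adjusted p = 0.0014). With GFP-TTP against GFP the log2 difference was -0.42, with an interval from -0.84 to 0.01 (adjusted p = 0.45), so that no direction can be given. By size, the changes ranked 82 among 10103 genes against GFP-TTP and 69 against GFP. The model shrank them, and the SE allows the kept part of the change over GFP-TTP to be 24.2% or 75.8%, so that the unshrunken value is larger by an amount these tables do not fix. For Ticam2, with a mean level of 19.9 beside 269.6 for Irak3, the same estimate was 45.4% or 54.6%. The lower solution would thus keep less of the change in Irak3 than in Ticam2. Which solution holds was not tested.

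The summed macrophage markers were lowest with GFP-TTP and highest with GFP-TTP-AA, as Irak3 was. Most of this sum is Lyz2 (64035, 45984 and 71420 in the order GFP, GFP-TTP, GFP-TTP-AA). Adgre1 (3663, 2290 and 5344), Csf1r (6886, 6129 and 7742) and Cd68 (6485, 5958 and 6818) ran the same way. Adgre1 also passed the threshold in each comparison. Ptprc, Itgam and Fcgr1 ran differently. Ptprc was highest in GFP-TTP (3332, 4115 and 3035), Itgam lowest in GFP (2968, 3187 and 3191) and Fcgr1 highest in GFP (129.4, 67.1 and 110.5). S100a8 was highest with GFP-TTP-AA. The part of these genes in the change of Irak3 was not tested. The genes of chromosome 10 as a whole had a median log2 fold change of 0.17 for GFP-TTP-AA over GFP-TTP (482 genes). With this subtracted, the log2 fold change of Irak3 was 1.18 (adjusted p = 3.7e-06). An effect of the chromosome or of the region on Irak3 was not tested. Within 1 Mb of the start of Irak3 there were 6 other tested genes, and their changes ran from -0.12 to 0.44 with 0 past the threshold. The highest of them was Tmbim4, whose annotated start lies 0.54 kb inside Irak3 on the opposite strand. Its log2 fold change was 0.44 (SE 0.18, adjusted p = 0.10). Exons of both share 192 nt, none of them in the coding sequence of Irak3, and whether the authors' counting used the strand is not given in the sources used here.

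**Figure D2:**
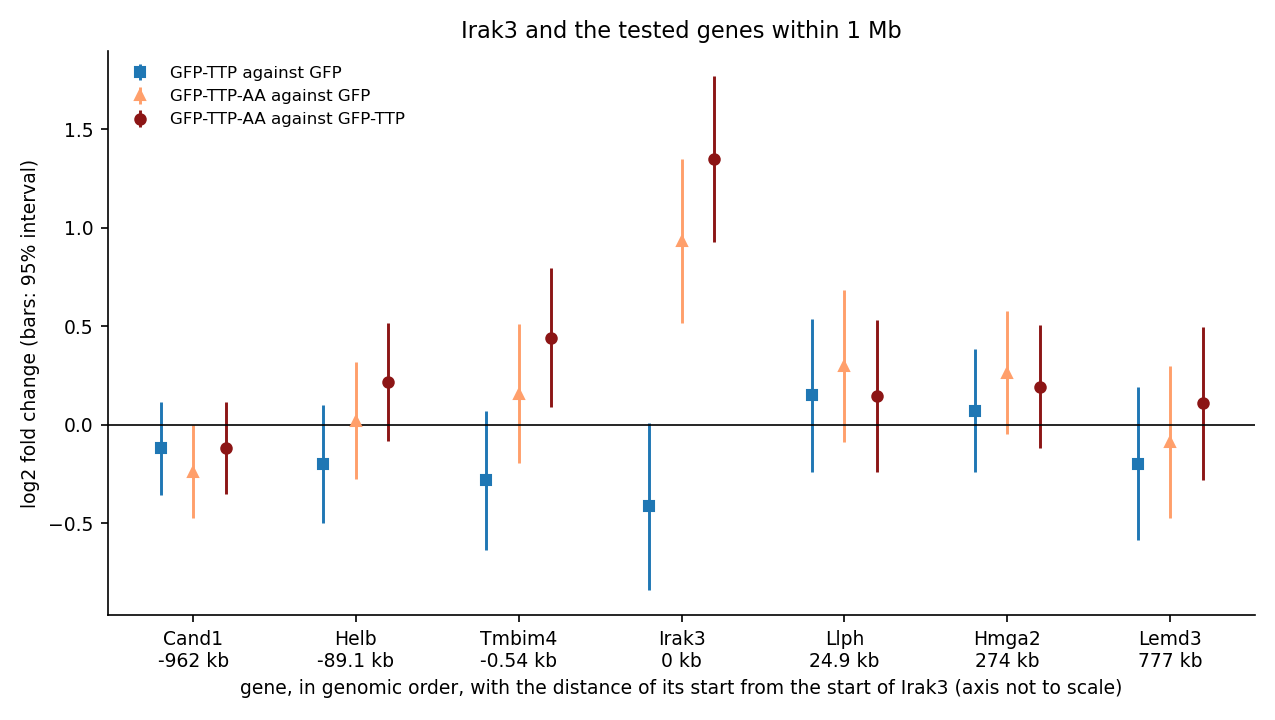
Log2 fold changes (vertical axis) of Irak3 and the 6 tested genes within 1 Mb, in genomic order, for the 3 comparisons; bars are 95% intervals. For GFP-TTP-AA over GFP-TTP the neighbours lie between -0.12 and 0.44 and Irak3 at 1.35.

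The genes whose values over the 9 libraries came closest to those of Irak3 were Lrrc25, Ms4a7 and Ccl7, out of 8438 genes with a mean of at least 50. The distance, the Euclidean distance of log2 values centred on each gene's mean, was 0.15, 0.32 and 0.53. They lie on chromosomes 8, 19 and 11. The level of Lrrc25 was 417.0 (GFP), 308.9 (GFP-TTP) and 828.2 (GFP-TTP-AA). Ms4a7 had 103.6, 80.7 and 194.4 in the same order. Ccl7, a monocyte-attracting chemokine, had 799.2, 690.6 and 1326. Being fitted, the profiles hold only condition and library-number terms.

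The other kinases did not pass the threshold in any comparison. Irak4, the kinase that starts the Myddosome (chr15:94543643-94581815, plus strand), had 236.6, 206.8 and 228.4 with GFP, 225.6, 197.1 and 217.8 with GFP-TTP, and 274.8, 240.1 and 265.3 with GFP-TTP-AA. Its fitted values with GFP-TTP-AA were above all others, an order that follows from the fitted terms alone, as for Irak3. The largest difference, against GFP-TTP, was 0.28 on the log2 scale (interval -0.05 to 0.62, adjusted p = 0.33). Exons of Twf1 on the opposite strand share 395 nt with it, 12 of them coding in Irak4. Gene models on the opposite strand also overlap exons of other genes of the set. Gm47009 shares 28 nt with Irak3, all coding in Irak3, and Gm43963 shares 196 nt with Irak2, all coding in Irak2. With Tirap, Gm39318 shares 446 nt, of which 443 are coding in Tirap, and Srpr shares 39 nt, of which 0 are.

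Irak2 (chr6:113638467-113695026, plus strand), which sustains signalling after IRAK1 is degraded, had 284.9, 377.7 and 639.7 with GFP, 312.8, 414.6 and 702.2 with GFP-TTP, and 360.3, 477.7 and 809.0 with GFP-TTP-AA. The conditions overlapped throughout. The third library was 2.25-fold above the first in the fit of each condition, more than for 99.7% of the tested genes, and exceeded every difference of Irak2 between conditions. The largest of these was a log2 difference of 0.34 for GFP-TTP-AA over GFP (interval -0.03 to 0.70, adjusted p = 0.41). In the authors' methods the model's second term is the library date, which coincides with the library number in these values. Myd88, Tollip and Ticam1 were also highest in the third library of each condition, Myd88 by 0.54 on the log2 scale over the first, more than 96.6% of the genes, and Tollip by 0.36.

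Irak1 (chrX:74013914-74023918, minus strand), the kinase that passes the signal to TRAF6, had its highest values in GFP macrophages. Its values were 71.7, 88.8 and 76.2 with GFP, 55.2, 68.3 and 58.7 with GFP-TTP, and 52.5, 65.1 and 55.9 with GFP-TTP-AA. All fitted values with GFP were above all others, which again follows from the fitted terms alone. The log2 difference from GFP was -0.38 with GFP-TTP (interval -0.82 to 0.07, adjusted p = 0.56) and -0.45 with GFP-TTP-AA (interval -0.89 to -0.00, adjusted p = 0.35), and neither passed the threshold. With GFP-TTP-AA over GFP-TTP it was -0.07 (adjusted p = 0.90).

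Of the adaptors, Myd88 (chr9:119335934-119341411, minus strand) came closest to the threshold. It had 407.9, 383.4 and 591.2 with GFP, 376.9, 354.2 and 546.1 with GFP-TTP, and 515.4, 484.4 and 746.9 with GFP-TTP-AA, and the conditions overlapped. Its level of 571.3 with GFP-TTP-AA was 1.37-fold that of 417.7 with GFP-TTP, a log2 difference of 0.45 (interval 0.12 to 0.79, adjusted p = 0.068), and it passed only at a threshold of 0.1. Against GFP the difference was 0.34 (interval 0.00 to 0.67, adjusted p = 0.34). Exons of Acaa1a on the opposite strand share 290 nt with Myd88, 238 of them coding, and Acaa1a differed by -0.13 for GFP-TTP-AA over GFP-TTP. Tirap (chr9:35184551-35200291, minus strand), which sorts MyD88 to the membrane, showed the least difference of all. Its 9 values lay between 85.8 and 91.0, and its log2 fold changes were 0.01, -0.03 and -0.04. The intervals of these reached from -0.51 to 0.48, so that changes of up to that size are within the error.

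TRIF and TRAM, the adaptors of the second arm, did not pass the threshold either. Ticam1 (chr17:56269319-56276786, minus strand) had 98.5, 88.5 and 107.1 with GFP, 77.8, 69.8 and 84.5 with GFP-TTP, and 106.7, 95.8 and 116.1 with GFP-TTP-AA. All fitted values with GFP-TTP lay below all others, an order set by the fitted terms and not by agreement between replicates. The log2 difference was 0.46 for GFP-TTP-AA over GFP-TTP (interval 0.04 to 0.88, adjusted p = 0.18) and -0.34 for GFP-TTP over GFP (interval -0.76 to 0.08, adjusted p = 0.59). Ticam2 (chr18:46557291-46574533, minus strand) had the lowest values of the 9 genes, 18.1, 15.8 and 15.3 with GFP, 20.5, 17.9 and 17.3 with GFP-TTP, and 27.2, 23.8 and 23.0 with GFP-TTP-AA. All fitted values with GFP-TTP-AA were above all others, which is likewise set by the fitted terms. Its largest difference was 0.59 against GFP (interval 0.10 to 1.08, adjusted p = 0.21). All of its 696 coding nt are also annotated as exon of Tmed7 on the same strand, whose mean level was 787.6, and how footprints on them were assigned is not given in the sources used here.

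Tollip (chr7:141874813-141918507, minus strand), which binds IRAK1 and the receptors and dampens their signalling, had its lowest values in GFP-TTP macrophages but passed the threshold in no comparison. It had 167.6, 134.4 and 215.4 with GFP, 121.1, 97.0 and 155.6 with GFP-TTP, and 169.0, 135.5 and 217.1 with GFP-TTP-AA. GFP and GFP-TTP-AA had almost the same levels, 169.3 and 170.7, and those of GFP-TTP (122.3) overlapped with both. The log2 difference was -0.47 between GFP-TTP and GFP (interval -0.87 to -0.07, adjusted p = 0.31) and 0.48 for GFP-TTP-AA over GFP-TTP (interval 0.08 to 0.88, adjusted p = 0.12). Both share the same GFP-TTP libraries.

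**Figure D3:**
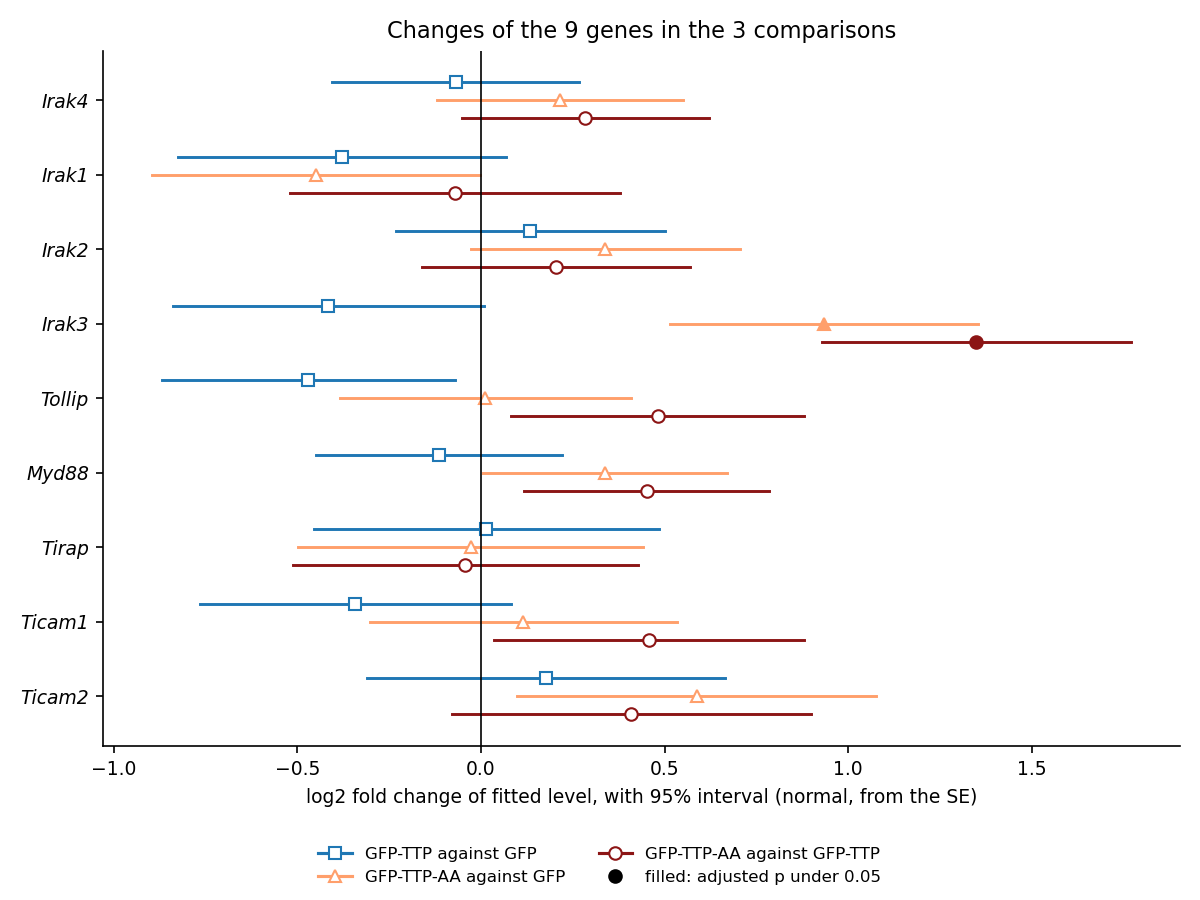
Log2 fold changes (horizontal axis) of the 9 genes with 95% intervals for the 3 comparisons, kinases at the top, then Tollip and the adaptors. Filled symbols mark an adjusted p under 0.05, which holds for Irak3 in both comparisons with GFP-TTP-AA.

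Counted over the set, 0 of 9 genes passed the threshold between GFP-TTP and GFP in the Wald test, and 1 of 9, Tollip, had an unadjusted p under 0.05. Among all tested genes 2.09% passed the threshold in this comparison, and 11.3% had an unadjusted p under 0.05. Between GFP-TTP-AA and GFP 1 of 9 passed, where the share was 3.03% of all genes and 1.76% in the direction of Irak3. An unadjusted p under 0.05 was seen for 4 of the 9 and for 14.2% of all genes. For GFP-TTP-AA over GFP-TTP 1 of 9 passed as well, where 10.2% of all genes did, 5.66% in the direction of Irak3, so that for the set as a whole this count is close to the background. Here 4 of the 9 genes (Irak3, Myd88, Ticam1 and Tollip) and 22.1% of all genes had an unadjusted p under 0.05. Over the 9 genes, the median log2 fold change was -0.11, 0.22 and 0.41 in the 3 comparisons in this order, beside 0.00, 0.01 and 0.01 for all genes, and 3, 7 and 7 of the 9 values were positive. The comparisons share libraries, so that these medians are not independent. The SD over all genes was 0.26, 0.27 and 0.35, and beside Irak3 the other 6 positive values over GFP-TTP were those of genes that did not pass.

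**Figure D4:**
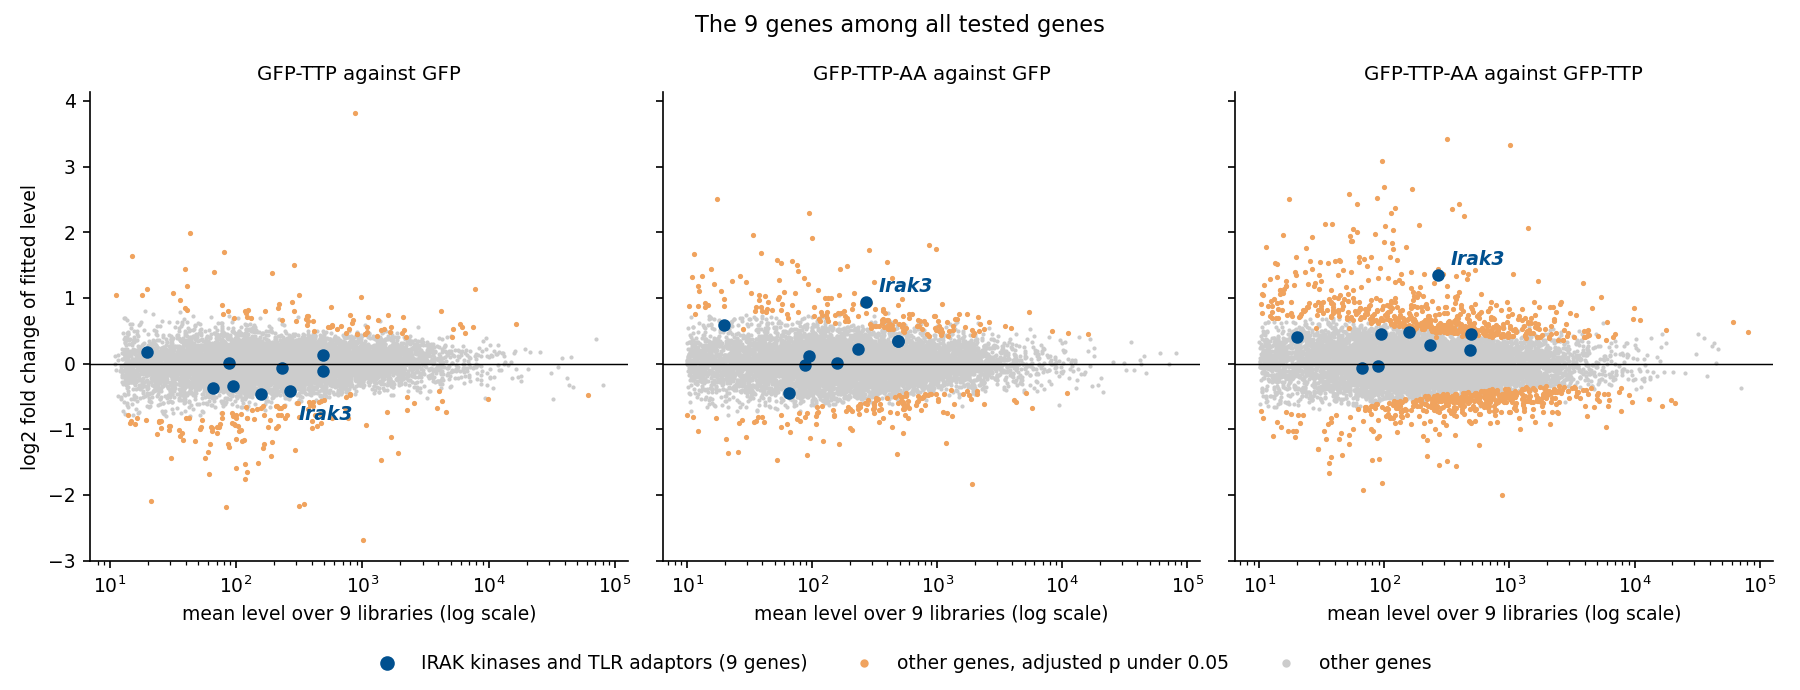
Log2 fold change against mean level (log axis) for all tested genes in the 3 comparisons, with the 9 genes as large points and genes with an adjusted p under 0.05 in orange. Irak3 stands at 0.93 and 1.35 in the comparisons with GFP-TTP-AA, and over all 3 comparisons the other 8 genes lie between -0.47 and 0.59.

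The receptor itself was not changed past the threshold. Tlr4 had a level of 217.7 (GFP), 204.4 (GFP-TTP) and 222.6 (GFP-TTP-AA), and its log2 fold changes were -0.09, 0.03 and 0.12 (adjusted p = 0.92, 0.98 and 0.77). The list of receptors and co-receptors and the lists below, like the 9 genes, were chosen with earlier results of these data known. Their counts beside the share of all genes are therefore no independent test of a list. Of 14 tested receptors and co-receptors, 2 rose with GFP-TTP-AA against GFP-TTP, beside 5.66% of all genes in this direction. At an unadjusted p under 0.05 there were 5 higher and 0 lower, beside 22.1% of all genes in either direction. Against GFP 0 of the 14 passed in the Wald test, with 2 at an unadjusted p under 0.05. The 2 that rose were Tlr9, the receptor for unmethylated CpG DNA, by 0.84 (adjusted p = 0.013), and Ly96, which encodes the LPS-binding partner MD-2 of TLR4, by 0.56 (adjusted p = 0.032). The median of these 14 genes was 0.25, beside 0.01 for all genes. Of 9 genes of the IL-1 receptor family, which signals through the same adaptor and kinases, 4 were expressed enough to be tested, and 0 passed in the Wald test, 0 also at an unadjusted p under 0.05. The median of these 4 genes with GFP-TTP-AA was -0.17 over GFP-TTP and -0.25 over GFP, with 0 of 4 values positive in each.

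Downstream of the Myddosome, 3 of 20 tested genes rose with GFP-TTP-AA against GFP-TTP, beside 5.66% of all genes in this direction. Tnip1, which encodes the ubiquitin-binding inhibitor ABIN1, rose by 0.62 (adjusted p = 0.011), and it also rose against GFP, by 0.76 (adjusted p = 0.0030). Irf5, a transcription factor activated through MyD88, rose by 0.61 (adjusted p = 0.0080), and Ube2n, the ubiquitin-conjugating enzyme that works with TRAF6, by 0.48 (adjusted p = 0.038). The median of the 20 genes was 0.08.

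In the list of genes downstream of TRIF, 3 of 14 tested genes rose with GFP-TTP-AA against GFP-TTP, beside 5.66% of all genes in this direction. Against GFP 0 of the 14 passed in the Wald test, with 4 higher and 1 lower at an unadjusted p under 0.05. Ripk3, the kinase of necroptosis, had levels of 123.4 (GFP), 39.1 (GFP-TTP) and 202.6 (GFP-TTP-AA). It fell by 1.66 on the log2 scale with GFP-TTP against GFP (adjusted p = 5.8e-10) and was 2.37 higher with GFP-TTP-AA (adjusted p = 8.3e-22). Ddx58, which was counted in this list, encodes RIG-I, an RNA sensor that is not itself a component of the TRIF arm. Its levels were 103.9, 43.3 and 106.4 in the same order. It likewise fell by 1.26 (adjusted p = 4.7e-06) and was 1.30 higher with GFP-TTP-AA (adjusted p = 7.0e-07). Tank, an adaptor of TBK1, rose by 0.52 (adjusted p = 0.049). The median of the 14 genes was 0.34, with 13 positive values.

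Among 15 tested inhibitors of TLR signalling, 2 rose with GFP-TTP-AA against GFP-TTP, beside 5.66% of all genes in this direction. At an unadjusted p under 0.05 there were 4 higher and 1 lower, beside 22.1% of all genes in either direction. Tnip3, which encodes ABIN3, rose by 0.86 (adjusted p = 0.00041) and also against GFP by 0.75 (adjusted p = 0.0079), as Irak3 did in both comparisons. Bcl3, an atypical IκB protein, rose by 0.75 (adjusted p = 0.025). Tnip1, whose product ABIN1 is also an inhibitor and which rose in both comparisons, was counted in the list downstream of the Myddosome instead. The median of this list was 0.17. No gene of these lists fell past the threshold in a comparison with GFP-TTP-AA, and apart from Ripk3 and Ddx58 none passed the threshold between GFP-TTP and GFP.

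**Figure D5:**
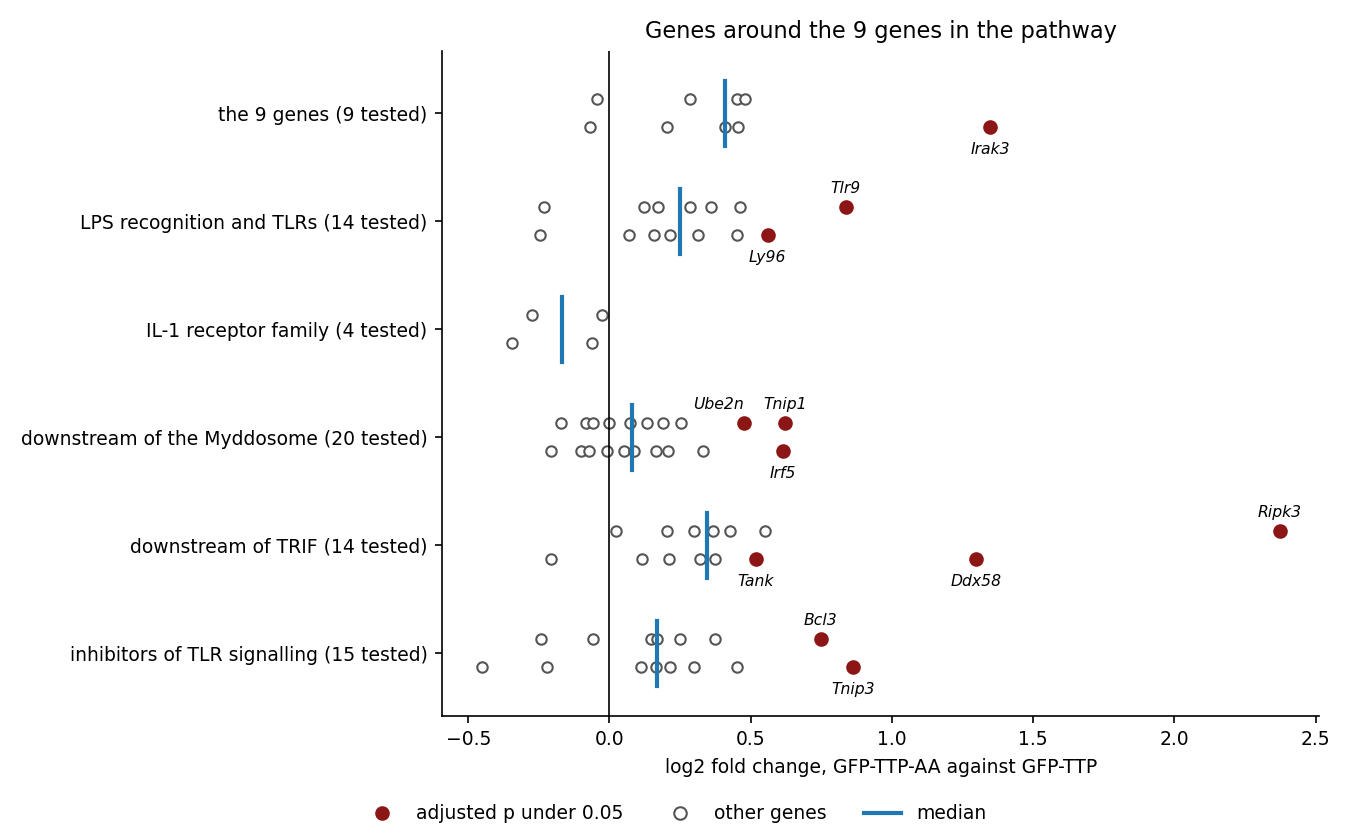
Log2 fold change of GFP-TTP-AA over GFP-TTP (horizontal axis) for the 9 genes and 5 lists of genes around them, with 1 point per tested gene, filled where the adjusted p was under 0.05, and the median of each list as a line. The median was 0.41 for the 9 genes, 0.34 for the list downstream of TRIF and 0.08 for the list downstream of the Myddosome. The lists were chosen with earlier results of these data known.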

How the data were processed

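RiboSeq libraries of immortalized TTP-deficient BMDMs, 3 of each condition, were grouped by their labels. Ribosome-protected fragments were isolated with the ARTseq kit and rRNA was depleted. Per the authors' methods and the submitters' processing notes, reads were trimmed (Trim Galore), mapped to mm10 (GRCm38) with TopHat allowing up to 2 alignments per read (the notes name TopHat2 version 2.0.12 and the methods an earlier version), counted with HTSeq and fitted with DESeq2 version 1.6.3 with library date and condition. Reads placed at up to 2 positions can be shared between near-identical genes. The table that the authors deposited as normalized counts holds a signal, the model's fitted value per gene and library (size factor times fitted mean, 0 zeros), in 16932 lines for 16921 genes. The deposited comparison tables hold the authors' mean, log2 fold changes, the SE of these on the log2 scale, Wald statistics, p-values and adjusted p-values. Of them the SE alone was used. As no observed counts are in the tables, no new count model was fitted and reads per library are unknown; depth enters through the SE.

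Size factors were recovered from profiles of fitted values shared exactly by at least 100 low genes, and were tested on simulated data. Genes with a mean of at least 10 were kept (10103). For 9938 of them the comparison of GFP-TTP with GFP gives an SE. Levels, log2 fold changes, two-sided Wald tests, 95% intervals and Benjamini-Hochberg adjustment (threshold 0.05) were computed with Python 3.11.15, pandas 2.3.3 and scipy 1.17.1 without a pseudocount. The part kept after shrinkage was estimated from the SE relative to the largest SE. Coordinates and 3′UTRs came from GENCODE vM21 on GRCm38, from the protein-coding transcript with the longest coding sequence (then the longest 3′UTR), and sites were read from the RefSeq genome of GRCm38. Named were all 9 genes, Zfp36, Tlr4, genes of the pathway lists past the threshold (at most 4 per list and comparison) and the 3 genes nearest to any of the 9 that passed. Neighbouring and overlapping genes were named after their values were seen. The 9 genes and all lists were chosen with earlier results of these data known. Alternatives were filters, adjustment over all comparisons, scaling, chromosome medians, a pseudocount of 10, undone shrinkage and a threshold of 0.1.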

Additional observations from a re-analysis of the deposited data

How the results depend on the processing

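Of the 9 alternative settings, the threshold of 0.1 gave counts only, and the others gave 213 log2 fold changes of single genes. Of these, 211 kept their direction and their side of the threshold, although most of these settings could not change a direction. The exceptions had main values of 0.01 and adjusted p-values near 1. With the median of the gene's chromosome subtracted, Tirap between GFP-TTP and GFP was -0.038, and Tollip between GFP-TTP-AA and GFP was -0.019. This follows from the subtraction of a value larger than the change. Only the subtraction of a median could change a direction, as the filters, the joint adjustment and the pseudocount leave it fixed. With shrinkage undone the main adjusted p is kept, so that direction and side were both fixed there. At a threshold of 0.1 the count of the 9 genes past it with GFP-TTP-AA over GFP-TTP was 2, Irak3 and Myd88. Irak3 passed the threshold in every setting that gives an adjusted p, with a log2 fold change of 1.18 to 1.35 against GFP-TTP (adjusted p = 4.3e-08 to 3.7e-06) and 0.90 to 0.93 against GFP (adjusted p = 0.00088 to 0.0032). With shrinkage undone its change against GFP-TTP was 1.78 with the higher solution for the kept part or 5.57 with the lower one. The lower one would keep less of the change in Irak3 than in Ticam2, which had the lowest mean level of the 9 genes. No paired analysis was possible because the values are fitted and already hold a term that coincides with the replicate number, so that a replicate block leaves no residual. For the same reason no library could be left out, and fits without each library in turn were not run. Depth limits the results through the SE, which for the 9 genes ran from 0.17 to 0.25.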
